A study of Mus musculus with 6 samples.

Results

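Acute phase proteins are plasma proteins that hepatocytes make in changed amounts during inflammation or injury. The group described here was chosen by name: Saa1, Saa2, Orm1, Orm2, Orm3, Lcn2, Hp, Hpx, Apcs and Serpina3n. All 10 were among the 14002 genes measured in liver RNA. The livers came from C57BL/6 mice, labelled as 8 weeks old, that had eaten a 60% high-fat diet for 8 weeks: 3 were wild type, and 3 lacked let-7b and let-7c-2 in hepatocytes (let7b/c2 LKO, here LKO). All 6 mice shared strain, age label and diet. The Cre driver of the knockout, the sex of the mice and any pooling are not stated by the labels. The comparison asks which acute phase transcripts differ when these microRNAs are missing from hepatocytes.

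In the acute phase response, interleukin-6 and its relatives signal through the shared receptor gp130 and the transcription factor STAT3, and interleukin-1 and tumour necrosis factor signal through NF-κB. Both routes meet with C/EBP factors at the promoters of hepatic genes. Serum amyloid A genes are induced most strongly in mice, while haptoglobin and hemopexin, which bind free hemoglobin and heme, are abundant already at rest. In mice the pentraxin serum amyloid P (Apcs) takes much of the acute phase role that C-reactive protein has in humans.

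Each library holds RNA of the whole liver, so fewer cells of a type and less RNA per cell cannot be told apart. Estimated reads ranged from 8549483 to 10764825 per library. A set of 9 hepatocyte markers was detected in every library, with a summed signal of 21681 to 24017 in wild type and 26323 to 29296 in LKO. The sum weighs abundant genes most. Of the 9, 0 passed the limma test, beside 1.82% raised and 1.69% lowered among all genes tested. Their median log2 fold change was 0.10, and 6 of 9 were positive, where 49.8% of all genes were. Relative to the wild type mean, Cps1 was at 1.49 to 1.67 in LKO livers and Asgr1 at 0.853 to 0.914. The 10 most abundant genes took 24.2% of the signal of LKO replicate 2, while the 5 other livers had 18.7% to 21.02%. Results of the acute phase genes are therefore also given without that liver. Over all genes tested, the first principal component (47.1% of the variance) placed LKO replicate 1 at 12.99, nearer the wild type livers (-26.9 to -18.6) than LKO replicates 2 and 3 were (29.4 and 24.9). LKO replicate 1 was likewise nearer wild type for the members, and the part of this wider difference in the members' values was not tested. Mature microRNAs are not captured by this polyadenylated RNA preparation, and the knockout itself was not checked here.

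Promoters of several members share a short motif. Of the 10 members, 8 had a promoter in the RefSeq table (GRCm38.p6, 250 bases before to 50 after the gene's start), namely all but Orm1 and Hp. The C/EBP motif TTGNNCAA, a palindrome that reads alike on both strands, occurred in 5 of these 8: Saa1, Saa2, Orm2, Orm3 and Lcn2. It occurred in 6.40% of all 32851 promoters of the table. These 5 are printed because they hold the motif, with the match in capitals.
Saa1 promoter, chr7:46742931-46743230, minus strand: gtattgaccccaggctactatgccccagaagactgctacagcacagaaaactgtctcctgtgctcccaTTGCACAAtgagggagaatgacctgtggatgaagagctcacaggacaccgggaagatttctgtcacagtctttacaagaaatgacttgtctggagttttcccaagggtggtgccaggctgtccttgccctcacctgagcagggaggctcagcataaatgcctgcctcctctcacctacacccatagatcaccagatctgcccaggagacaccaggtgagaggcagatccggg
Saa2 promoter, chr7:46751583-46751882, plus strand: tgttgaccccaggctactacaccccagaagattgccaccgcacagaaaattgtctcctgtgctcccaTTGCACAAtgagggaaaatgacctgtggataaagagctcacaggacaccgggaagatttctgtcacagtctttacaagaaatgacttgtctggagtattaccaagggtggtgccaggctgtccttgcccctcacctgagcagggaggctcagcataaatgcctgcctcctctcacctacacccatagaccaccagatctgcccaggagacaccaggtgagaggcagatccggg
Orm2 promoter, chr4:63362199-63362498, plus strand: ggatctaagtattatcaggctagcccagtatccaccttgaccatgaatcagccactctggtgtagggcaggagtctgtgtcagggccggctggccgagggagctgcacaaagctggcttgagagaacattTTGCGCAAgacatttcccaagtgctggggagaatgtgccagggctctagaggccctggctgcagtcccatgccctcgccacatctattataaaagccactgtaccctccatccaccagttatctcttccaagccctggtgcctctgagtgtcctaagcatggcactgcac
Orm3 promoter, chr4:63355908-63356207, plus strand: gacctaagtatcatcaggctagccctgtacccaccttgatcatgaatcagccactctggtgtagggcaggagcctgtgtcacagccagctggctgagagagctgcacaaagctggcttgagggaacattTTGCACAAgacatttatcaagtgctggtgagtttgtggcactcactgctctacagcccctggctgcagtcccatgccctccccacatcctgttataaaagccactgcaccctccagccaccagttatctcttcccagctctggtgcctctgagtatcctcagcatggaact
Lcn2 promoter, chr2:32387690-32387989, minus strand: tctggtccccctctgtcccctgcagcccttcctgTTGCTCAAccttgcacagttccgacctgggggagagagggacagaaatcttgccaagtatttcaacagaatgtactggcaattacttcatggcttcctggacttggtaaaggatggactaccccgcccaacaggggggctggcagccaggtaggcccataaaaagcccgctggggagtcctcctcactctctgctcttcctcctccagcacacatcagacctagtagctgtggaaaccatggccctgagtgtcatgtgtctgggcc
The match began 182 bases before the start in Saa1 and 183 in Saa2, as TTGCACAA in both. It began 120 bases before the start of Orm2 as TTGCGCAA, 121 before Orm3 as TTGCACAA and 216 before Lcn2 as TTGCTCAA. The Saa1 and Saa2 promoters were identical at 287 of 299 aligned bases, and those of Orm2 and Orm3 at 263 of 295. Apcs held the STAT3 motif TTCNNNGAA, found in 8.30% of all promoters, as TTCTAGGAA. Serpina3n held the NF-κB motif (GGG, any 2 bases, then TTTCC), found in 1.63%, as GGGCTTTTCC on the plus strand. Hpx held none of these, and the HNF1 motif was found in 0 of the 8. All motifs were searched on both strands, no matches overlapped in these 8 promoters, and a match describes letters in this window only.

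The microRNAs removed from these hepatocytes bind messenger RNAs through bases 2 to 8, the seed, shown in capitals. Their mature sequences share it, so 1 search covers both.
let-7b-5p: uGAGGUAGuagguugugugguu
let-7c-5p: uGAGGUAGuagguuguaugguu
None of the 10 members holds a match to this seed in its longest annotated 3′ untranslated region (GENCODE M21). The 8mer site CTACCTCA and its 7mers CTACCTC and TACCTCA were searched. Among 12726 listed genes with such a region, 3.54% held the 8mer and 16.8% at least one of the 7mers. The untranslated regions of the members were 69 to 723 bases long.

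The acute phase transcripts were high in LKO replicates 2 and 3 and near wild type levels in LKO replicate 1. Only Orm1, the main orosomucoid (alpha-1-acid glycoprotein) gene, passed the test, with a mean signal of 984 ± 477 (SD, n = 3) against 320.2 ± 62.3 in wild type. All 10 had a positive log2 fold change. In LKO replicate 2 all 10 members were above every wild type liver, as were 31.5% of all genes tested. The same held for all 10 in LKO replicate 3, against 29.9% of all genes. None was below every wild type liver in LKO replicates 2 or 3, where 32.3% and 30.8% of all genes were. In LKO replicate 1 only Orm1 was above every wild type liver, where 29.2% of all genes were. Saa2, Orm2 and Hp were below every wild type liver there, as were 27.2% of all genes. LKO replicate 2 was the highest of the 6 livers for 9 of 10 members and LKO replicate 3 for 1. Among all genes tested, replicates 1, 2 and 3 were highest in 15.3%, 19.1% and 16% respectively. LKO replicate 2 was also the highest for 15 of 26 other positive and 9 of 15 negative acute phase genes, described below. Being highest there was thus not particular to the members. The plot of members by mouse shows this order.

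**Figure D1:**
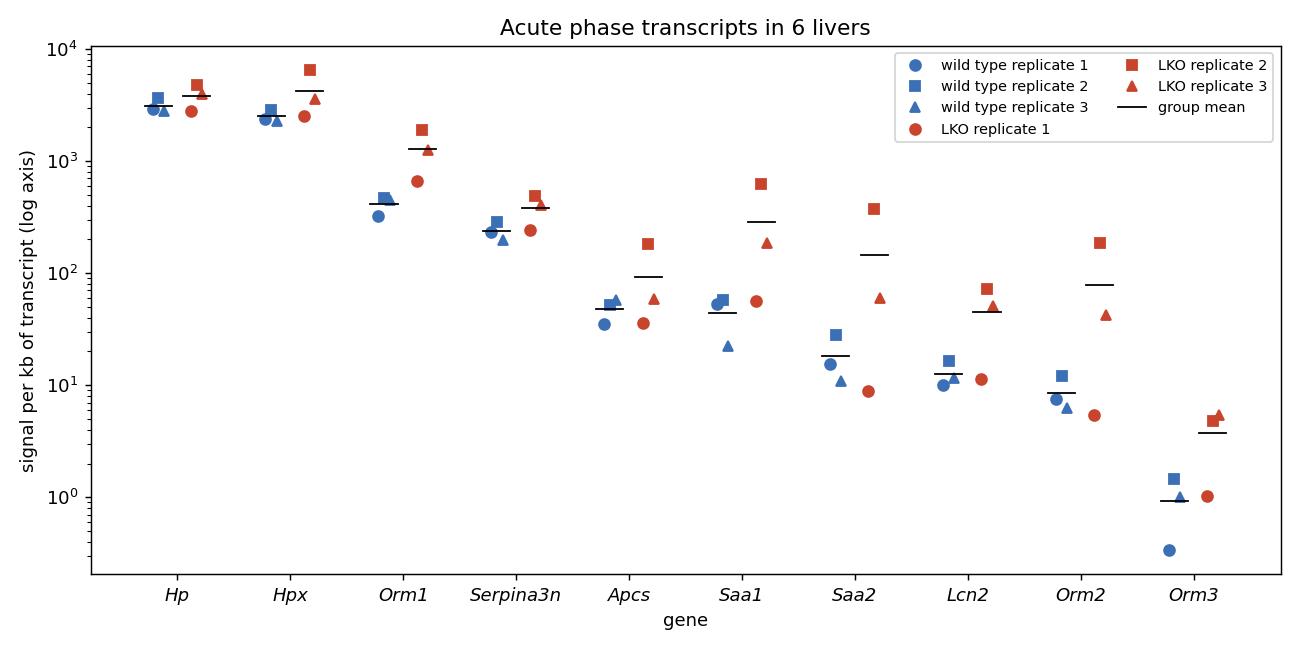
Signal per kilobase of transcript (log axis) of the 10 acute phase genes, ordered by wild type level, in 3 wild type (blue) and 3 LKO (red) livers; black lines are group means. LKO replicate 2 (red squares) is the highest liver for 9 of 10 genes and LKO replicate 3 for Orm3, while LKO replicate 1 (red circles) lies above all wild type livers only for Orm1.

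The serum amyloid A genes encode small apolipoproteins of high-density lipoprotein that surge in inflammation. Saa1 (chromosome 7, 46740497 to 46742980, minus strand, GRCm38) had a signal of 32.3, 35.2 and 13.7 in wild type replicates 1, 2 and 3. Its signal was 34.7, 379 and 112 in LKO replicates 1, 2 and 3. LKO replicate 1 lay within the wild type range and the other LKO livers far above it. Saa1 had a log2 fold change (LKO minus wild type, on log2(signal + 1)) of 2.15 with SE 0.69 and a limma adjusted p of 0.133, and without LKO replicate 2 it was 1.29 (SE 0.51, adjusted p 0.286). Saa2, its neighbour on the opposite strand (46751790 to 46754313), had 10.03, 18.2 and 7.07 in wild type. In LKO it had 5.80, 242 and 38.8. The lowest and the highest of the 6 livers were thus both LKO. Saa2 gave 1.75 on that scale (SE 0.99, limma adjusted p 0.384), or 0.46 without LKO replicate 2.

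Per kilobase, Saa2 reached 0.596 of the level of Saa1 in LKO replicate 2, against 0.156 in LKO replicate 1 and 0.322 in LKO replicate 3. In wild type the ratio was 0.290, 0.484 and 0.482, so the groups overlapped. Coding sequences of the pair were identical at 348 of 366 bases, and 13.2% of the 50-base stretches of Saa1 transcripts also occur in Saa2. How reads were divided between the pair is uncertain to that extent.

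Orosomucoids are lipocalins that carry lipids and basic drugs in plasma, encoded by 3 neighbouring genes on chromosome 4 (63344560 to 63365878, plus strand, GRCm38). Orm1 had a signal of 249, 364 and 348 in wild type and 510, 1463 and 978 in LKO. The groups did not overlap. All LKO livers were above all wild type livers in 1 of 10 members, beside 12.2% of all genes tested, so this is not a trait of the members. Orm1 rose by 1.51 on the log2 scale (SE 0.32, limma adjusted p 0.0357). It was the 1 of 10 members raised, beside 1.82% of all 11168 genes tested, and 0 of 10 were lowered, beside 1.69%. At an unadjusted p under 0.05 there were 5 of 10 (Saa1, Orm1, Orm3, Lcn2 and Serpina3n), all higher in LKO, beside 9.58% of all genes higher and 8.86% lower at that level. Of these, Orm3 had a mean signal of 0.723 in wild type and 2.92 in LKO. It passed the filter at a mean of 1 only through its LKO values, so its p adds no support. Leaving out any single liver other than LKO replicate 1 ended the call of Orm1. Its limma adjusted p was then 0.0699 to 0.12, and its log2 fold change stayed between 1.16 (without LKO replicate 2, adjusted p 0.0885) and 1.61.

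Orm2 had the largest fold of any member in a single mouse. Its signal was 5.86, 9.29 and 4.86 in wild type and 4.17, 143 and 33.1 in LKO, so LKO replicate 1 was the lowest of all 6 livers. LKO replicate 2 was at 21.5-fold the wild type mean. The log2 fold change of Orm2 was 1.98 (SE 0.91, limma adjusted p 0.287), or 0.83 without LKO replicate 2. Orm3 was near the limit of detection, with 2, 9 and 7 estimated reads in wild type and 6, 25 and 38 in LKO. These reads gave a signal of 0.260, 1.14 and 0.773 and of 0.791, 3.72 and 4.23. Its log2 fold change was 1.07 (SE 0.41, limma adjusted p 0.202), or 1.77 with limma-voom, and 0.86 without LKO replicate 2.

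The makeup of the orosomucoid pool differed between livers. Per kilobase, Orm2 reached 9.80% of the level of Orm1 in LKO replicate 2 and 3.38% in LKO replicate 3, but 0.818% in LKO replicate 1. In wild type it was 2.36%, 2.55% and 1.39%. Of the 50-base stretches of Orm1 transcripts 20.4% also occur in Orm2, and the coding sequences were identical at 558 of 621 bases, so this ratio depends on how shared reads were split.

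Lcn2 encodes lipocalin 2, which withholds iron from bacteria by binding their siderophores. It had a signal of 9.11, 15.1 and 10.6 in wild type and 10.3, 66.7 and 46.6 in LKO. LKO replicate 1 again fell within the wild type range. The log2 fold change of Lcn2 was 1.42 (SE 0.54, limma adjusted p 0.194), or 0.91 without LKO replicate 2. Neutrophils also make lipocalin 2. Of 12 neutrophil markers 5 were measured (S100a8, S100a9, Ngp, Csf3r and Ltf), with a summed signal of 0.260 to 0.884 in wild type and 1.45 to 1.67 in LKO. S100a8 and S100a9 had 0 to 2 estimated reads in every library, and Ngp was at 0 in 5 of 6. Relative to the wild type mean, Csf3r was at 2.30, 1.86 and 3.61 in LKO replicates 1, 2 and 3. S100a8 was at 0, 8.08 and 3.02 there, S100a9 at 1.66, 0 and 0.700, and Ltf at 7.16, 0 and 0. All 5 had a mean signal under 1 and were not tested.

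The hemoglobin and heme binders were the most abundant members and had small fold changes. Hp, haptoglobin, had 3942, 4886 and 3792 in wild type and 3754, 6395 and 5338 in LKO. LKO replicate 1 was the lowest of the 6 livers. Hpx, hemopexin, had 3588, 4307 and 3448 in wild type and 3768, 9748 and 5333 in LKO. The log2 fold change was 0.27 for Hp (SE 0.23, limma adjusted p 0.565) and 0.63 for Hpx (SE 0.31, adjusted p 0.314), and without LKO replicate 2 it was 0.10 and 0.25. Per kilobase, Hpx was at 0.791 to 0.817 of the level of Hp in wild type, at 0.901 and 0.896 in LKO replicates 1 and 3, and at 1.37 in LKO replicate 2. That ratio did not overlap between the groups, but it was not set against ratios of other gene pairs.

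Apcs had a signal of 34.1, 51.0 and 55.7 in wild type and 34.6, 176 and 57.04 in LKO. LKO replicate 2 stood far above the wild type livers, LKO replicate 3 barely above the highest of them, and LKO replicate 1 near the lowest. The log2 fold change of Apcs was 0.61 (SE 0.47, limma adjusted p 0.538), and without LKO replicate 2 it was -0.05. Serpina3n, a serine protease inhibitor of the alpha-1-antichymotrypsin family, had 484, 586 and 405 in wild type and 506, 1013 and 840 in LKO. Its log2 fold change was 0.63 (SE 0.24, limma adjusted p 0.194), or 0.42 without LKO replicate 2.

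**Figure D2:**
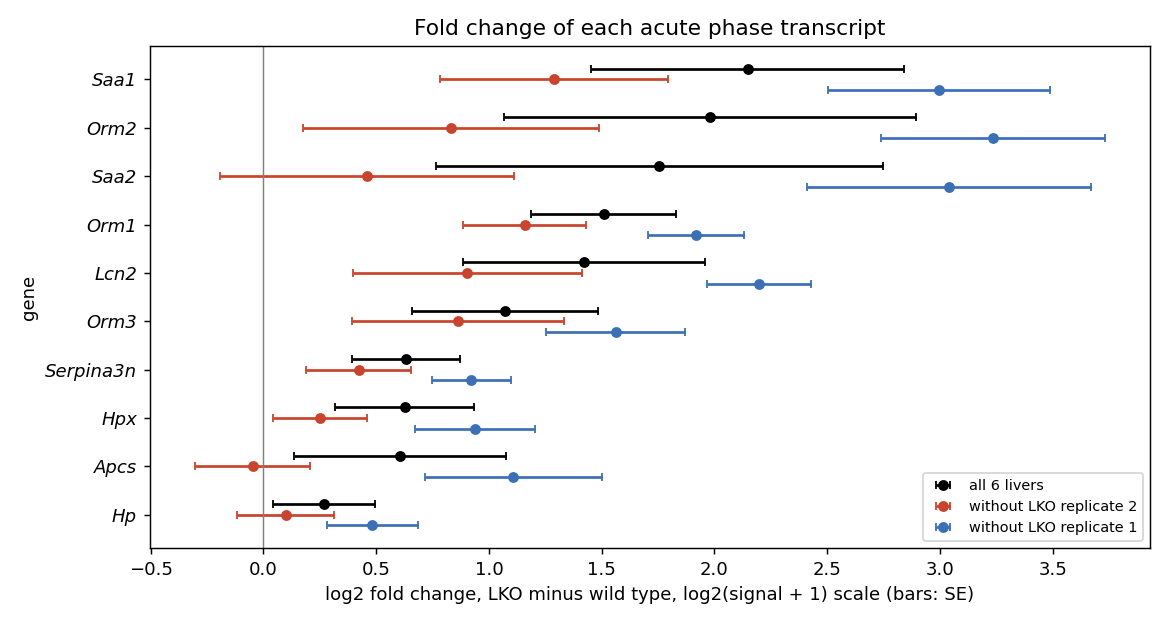
Log2 fold change of each member (LKO minus wild type, log2(signal + 1) scale) with its SE, from all 6 livers (black), without LKO replicate 2 (red) and without LKO replicate 1 (blue). Without LKO replicate 1 all 10 values are higher than with all 6 livers, and without LKO replicate 2 all 10 are lower, with Apcs at -0.05.

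The call of the group depended on single livers. Without LKO replicate 2, 0 of 10 members were called, where 0.825% of all genes were raised and 0.96% lowered. Without LKO replicate 1, 7 of 10 were raised, beside 2.48% of all genes (2.36% were lowered): Saa1, Saa2, Orm1, Orm2, Orm3, Lcn2 and Serpina3n. Orm3 passed the filter only through its LKO values in that fit too. In that fit the log2 fold changes of the 10 ran from 0.48 for Hp to 3.23 for Orm2. The median log2 fold change of the members was 1.25 with all livers and 0.65 without LKO replicate 2, where all genes tested had -0.00 and 0.00.

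Relative to the wild type mean, 9 of 10 members were more than 2-fold higher in LKO replicate 2, 6 of 10 in LKO replicate 3 and 0 of 10 in LKO replicate 1. Among all genes tested the shares past the same fold were 3.85%, 3.14% and 2.44%. The highest folds in LKO replicate 2 were 21.5 for Orm2, 20.6 for Saa2 and 14.02 for Saa1, and the lowest was 1.52 for Hp. In LKO replicate 3 the folds ran from 1.22 for Apcs to 5.85 for Orm3. In LKO replicate 1 they ran from 0.493 for Saa2 to 1.59 for Orm1.

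The members also spread more among LKO than among wild type livers. For all 10 the SD of log2(signal + 1) was larger in LKO, which was so in 51.5% of all genes tested. Its median over members was 1.02 in LKO and 0.36 in wild type, against 0.19 and 0.18 over all genes. Among the members, Saa2, Orm2 and Saa1 had the widest LKO spread, at 2.58, 2.41 and 1.71, wider than in over 99.9% of genes tested. Wild type livers varied too. Saa1 ranged from 13.7 to 35.2 there, and its wild type SD of 0.72 was larger than in 98.3% of genes.

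The members varied together across mice. Over the 45 pairs of members, Pearson's r of log2(signal + 1) across the 6 livers was 0.73 to 0.99 with a median of 0.93. These values describe 6 points, which share 1 library each and rest partly on LKO replicate 2. Without that liver the range was 0.14 to 0.99 and the median 0.87. As a share of the library, the 10 members took 0.704% to 0.863% of the signal in wild type, and 0.757%, 1.53% and 1.07% in LKO replicates 1, 2 and 3. Most of this was Hp and Hpx. Without them the share was 0.0736% to 0.0907% in wild type, and 0.0971%, 0.271% and 0.176% in LKO replicates 1, 2 and 3. On that measure every LKO liver was above every wild type liver.

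By level per kilobase, the order in wild type was Hp (3128 ± 441, SD, n = 3), Hpx (2522 ± 307), Orm1 (413 ± 80.4), Serpina3n (238 ± 44.04), Apcs (48.3 ± 11.7), Saa1 (44.4 ± 19.1), Saa2 (18.1 ± 8.85), Lcn2 (12.7 ± 3.43), Orm2 (8.61 ± 2.999) and Orm3 (0.935 ± 0.569). Across the wild type livers, values overlapped between Hp and Hpx, and between each pair of neighbours from Apcs down to Orm2. Within each wild type liver, however, Hpx was below Hp (at 0.791 to 0.817 of it) and Orm2 below Lcn2. Saa2 was likewise below Saa1 in each, at 0.290 to 0.484 of it. The order of Apcs and Saa1, and that of Saa2 and Lcn2, differed between wild type livers. In LKO replicate 2 the level of Saa1 per kilobase reached 623, above that of Serpina3n at 491.

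Genes whose pattern over the 6 livers was most like the members' mean were Ambp (r = 0.99), Nrbp2 (0.99), Slc25a23 (0.99), Pecam1 (0.98), Cyp2c54 (0.98) and Cfi (0.98), among 7881 candidates. Without LKO replicate 2 these r values were 0.95 to 0.97, and none of the 6 genes was called. High r follows from choosing the top of so many candidates over 6 livers. The livers kept in the second r were also used for that choice, so neither value is a test. Ambp encodes alpha-1-microglobulin, itself a lipocalin, together with bikunin. Its signal per kilobase was 1788, 2018 and 1875 in wild type and 1865, 2803 and 2275 in LKO, so it followed the members with a smaller range. Cfi encodes complement factor I. Its signal per kilobase was 264, 301 and 289 in wild type and 289, 487 and 357 in LKO.

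Of 26 measured genes on a list of other positive acute phase genes, 3 rose, 0 fell and 23 did not pass, beside 1.82% raised and 1.69% lowered among all genes. The median log2 fold change was 0.25 (0.06 without LKO replicate 2), and 21 of 26 were positive, where 49.8% of all genes were. The 3 were Cd14, a co-receptor for bacterial lipopolysaccharide, and the metallothionein genes Mt1 and Mt2, which bind zinc. Cd14 had a signal of 1.56, 2.27 and 2.10 in wild type and 6.60, 5.51 and 9.25 in LKO (log2 fold change 1.43, SE 0.23, limma adjusted p 0.0101). It was high in all 3 LKO livers and was called with each library left out. Macrophages also make Cd14, and their markers, given at the end, were higher in LKO. Mt1 had 55.7, 153 and 48.1 in wild type and 250, 832 and 394 in LKO. The log2 fold changes of Mt1 and Mt2 were 2.53 and 2.88. Leaving out LKO replicate 2 gave 2.06 and 2.33, with limma adjusted p of 0.0635 and 0.067. Their calls were kept only without LKO replicate 1 or wild type replicate 2. A2m was not analysed here.

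Other genes of this list are named after their values were seen. Fgl1, a hepatic fibrinogen-like protein, had the members' order, with 106, 142 and 143 in wild type and 126, 755 and 286 in LKO. Its adjusted p was 0.227 in limma. Serpina1e also had that order among LKO livers, with 977, 1008 and 452 in wild type and 225, 7531 and 3778 in LKO. Its SD of log2(signal + 1) in LKO was 2.68, and its adjusted p was 0.551 in limma. Itih3, an inter-alpha-trypsin inhibitor heavy chain, had 688, 725 and 752 in wild type and 868, 2062 and 1192 in LKO (limma adjusted p 0.121). The constitutive Saa4 had 531, 410 and 370 in wild type and 588, 653 and 818 in LKO, with no overlap but an adjusted p of 0.0707 in limma. In 8 of 26 genes of this list all LKO livers were above all wild type livers, beside 12.2% of all genes tested. In 0 of 26 they were below, beside 11.9%. Saa3, which macrophages make in mice, was at 1.45 to 3.43 in all 6 livers. Crp had 258, 325 and 350 in wild type and 292, 408 and 297 in LKO. The fibrinogen genes Fga, Fgb and Fgg had log2 fold changes of 0.16, 0.19 and 0.13.

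Hamp, which encodes the iron hormone hepcidin, had the opposite order. Its signal was 402, 523 and 529 in wild type and 458, 53.7 and 120 in LKO, so it was lowest in the livers where Saa1 was highest. The log2 fold change of Hamp was -1.73 (SE 0.59, limma adjusted p 0.15), and -1.03 without LKO replicate 2.

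**Figure D3:**
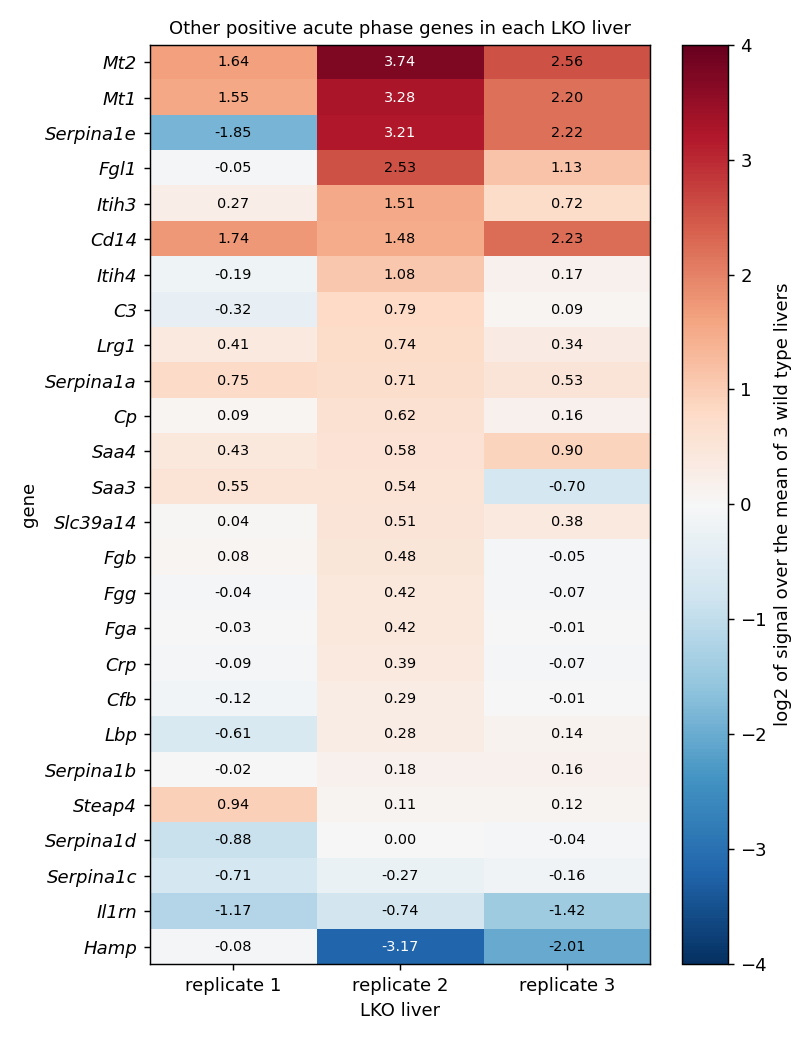
Log2 of the signal over the mean of 3 wild type livers for the 26 measured genes of the list of other positive acute phase genes, in each LKO liver. Mt2 (3.74) and Hamp (-3.17) mark the ends in replicate 2, and Fgl1 runs from -0.05 in replicate 1 to 2.53 in replicate 2.

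Negative acute phase genes, plasma proteins whose synthesis falls in inflammation, were 15 in number, all tested. Of these 1 fell, 0 rose and 14 did not pass, beside 1.69% lowered and 1.82% raised among all genes, and the median log2 fold change was 0.08. Pon1, a high-density lipoprotein esterase, had 772, 864 and 859 in wild type and 624, 567 and 585 in LKO (log2 fold change -0.49, SE 0.11, limma adjusted p 0.0486). Its call was lost with any 1 library left out, with an adjusted p of up to 0.166 in limma. Named after their values were seen, Ttr, a thyroid hormone carrier, had 6197 to 7001 in LKO against 8603 to 10220 in wild type, with an adjusted p of 0.205 in limma. The albumin gene Alb had a log2 fold change of 0.03 (SE 0.47). Relative to the wild type mean, Alb was at 0.816, 1.42 and 0.902 in LKO replicates 1, 2 and 3. Ahsg, which encodes fetuin-A, had 7476, 7859 and 5714 in wild type and 9351, 19221 and 13523 in LKO (limma adjusted p 0.111).

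Among 28 tested genes of cytokine signalling to hepatocytes, 1 rose, 0 fell and 27 did not pass, a raised share near the 1.82% of all genes (1.69% were lowered). The median log2 fold change was 0.23. In 11 of the 30 measured genes of this list all LKO livers were above all wild type livers, beside 12.2% of all genes tested. In 2 of the 30 they were below, beside 11.9%. The 30 include genes below the filter, which the shares of all genes do not. Lifr, the leukemia inhibitory factor receptor that pairs with gp130, had 148, 130 and 109 in wild type and 350, 410 and 350 in LKO (log2 fold change 1.52, SE 0.13, limma adjusted p 4.5e-04). It was high in every LKO liver, replicate 1 included, and was called with each library left out. Named after their values were seen, Socs3, a STAT3-induced feedback inhibitor, had 3.26, 2.27 and 1.77 in wild type and 4.62, 18.2 and 7.58 in LKO. Stat3 had 87.8, 88.3 and 98.1 in wild type and 111, 164 and 137 in LKO. Il6ra, the interleukin-6 receptor gene, had 105, 111 and 94.02 in wild type and 118, 183 and 161 in LKO. Il1r1, the interleukin-1 receptor gene, had 58.5, 33.3 and 75.2 in wild type and 78.7, 134 and 167 in LKO. These 4 had no overlap between groups, with adjusted p of 0.0695, 0.0699, 0.0961 and 0.0773 in limma. The C/EBP genes Cebpa, Cebpb and Cebpd had log2 fold changes of -0.16, 0.17 and 0.24, none called.

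**Figure D4:**
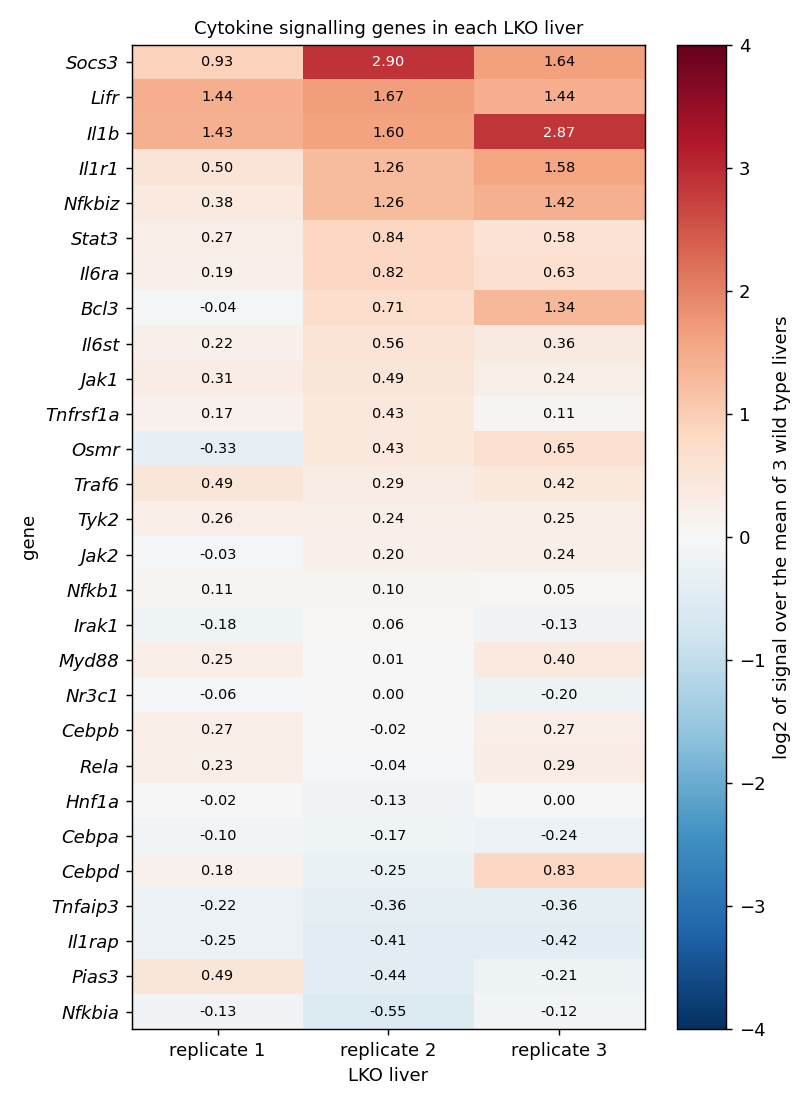
Log2 of the signal over the mean of 3 wild type livers for 28 tested cytokine signalling genes in each LKO liver. Socs3 runs from 0.93 in replicate 1 to 2.90 in replicate 2, while Lifr is at 1.44, 1.67 and 1.44.

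Of the 30 measured signalling genes, 9 hold a let-7 seed match in the 3′ untranslated region. These regions were 410 to 7102 bases long, longer in range than those of the members, and the lists were not compared by a test. The 9 genes with a match were Cebpd, Il1r1, Il6ra, Lifr, Myd88, Osmr, Stat3, Tnfaip3 and Tyk2, of which only Lifr was called. Lifr, Stat3, Il6ra, Il1r1, Tyk2 and Myd88 were above the wild type mean in every LKO liver. Osmr was below it only in LKO replicate 1, and Cebpd only in LKO replicate 2. Tnfaip3 was below the wild type mean in every LKO liver, at 0.856, 0.780 and 0.779 of it in replicates 1, 2 and 3. The part of the seed matches in these values was not tested. The 8mer occurs in Osmr and Tyk2. Of the 12726 genes above, 16.8% hold a match. Il6, Il1a and Osm were not analysed here.

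On a list of scavenging and receptor genes, 1 of 7 tested rose and 1 fell, beside 1.82% and 1.69% of all genes. Lrp2, which encodes megalin, an endocytic receptor, had a low signal of 0.505 to 1.44 in wild type and 3.87 to 6.07 in LKO (log2 fold change 1.63, limma adjusted p 0.0108). Its call was lost in 1 of 6 fits with a library left out, at up to 0.0542. The biliverdin reductase gene Blvrb had 117, 165 and 147 in wild type and 86.7, 67.9 and 75.8 in LKO (log2 fold change -0.88, limma adjusted p 0.0127). Blvrb was not called in limma without LKO replicate 2, LKO replicate 3 or wild type replicate 2 (adjusted p 0.0522, 0.0525 and 0.0546). Named after their values were seen, the haptoglobin-hemoglobin receptor gene Cd163 had 6.77, 5.93 and 7.18 in wild type and 8.44, 16.4 and 22.6 in LKO, and the hemopexin receptor gene Lrp1 had log2 fold change 0.48. Of the Serpina3 family 5 were tested and none was called. The most abundant, Serpina3k and Serpina3m, had log2 fold changes of 0.54 and 0.28.

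Markers of Kupffer cells, the liver's macrophages, were also measured. All 13 on the list were detected in all 6 livers, and 5 rose, beside 1.82% of all genes. For 11 of the 13 every LKO liver was above every wild type liver, as in 12.2% of all genes. Their summed signal was 149, 171 and 160 in wild type and 225, 294 and 323 in LKO. LKO replicate 1 was thus above all wild type livers for these markers, while most acute phase members were not. The part of these cells, and of the composition of LKO replicate 2, in the acute phase values was not tested.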

How the data were processed

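Liver RNA of 3 wild type and 3 LKO mice was sequenced from stranded mRNA libraries, per the labels' protocols. The authors deposited 1 table per mouse with 1 expression signal per gene, whose unit is not named in the file headers. The submitters' processing notes name STAR 2.5.1, RSEM 1.2.22 and edgeR, with build mm10, and give no role for them. In the deposited signal every positive value was a hundredth-multiple of a library step, within 0.05 of a hundredth, so dividing by the step gave estimated reads. Between 82.04% and 83.1% of positive values were whole within 0.005 of a read, too few for a count model as the main test. Depth limits low genes: 3 reads equal a signal of 0.331 to 0.447, for counting error only.

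Genes with a mean signal of at least 1 were kept. On log2(signal + 1), limma 3.58.1 under R 4.3.3 was run (two-sided, mean-variance trend, no block), with Benjamini-Hochberg adjustment over 11168 genes and a threshold of 0.05. Fold changes on this scale understate low genes. The design file listed a count model for whole counts, which these files do not hold. Signal per kilobase used the longest protein-coding transcript in GENCODE M21, which held 13977 of the 14002 gene identifiers. Names were missing, unknown or turned into dates in 41 rows, and 26 were restored from GENCODE M21. The p-values set the difference between groups against the spread within groups of these 6 samples, moderated over all genes tested.

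Named were the 10 members, up to 4 called genes with the smallest p in each other list or else its 2 most abundant, and the 6 genes of mean log2 value at least 3 with the highest r to the members' mean. Members and lists were chosen with earlier results of these data known. The fit was tested on simulated data. The replicate numbers were checked for pairing, and alternatives changed the scaling, filter, pseudocount, test, block or libraries.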

Additional observations from a re-analysis of the deposited data

How the results depend on the processing

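Among all genes, 203 were raised and 189 lowered. Limma-voom gave 133 raised, and limma without the mean-variance trend gave 98 raised and 97 lowered. With single livers left out the counts ran from 76 to 277 raised and from 79 to 263 lowered. Of the 10 members, 0 were raised without the filter on low values and 0 without the trend, and 0 to 7 with a liver left out. The 7 came without LKO replicate 1. Other positive acute phase genes gave 1 to 7 raised and 0 to 1 lowered with a liver left out. Negative ones gave 0 to 2 raised and 0 to 0 lowered in those fits, and 0 lowered without the filter, with pseudocount 0.1, without the trend and with the replicate block. Cytokine signalling genes gave 1 to 5 raised with a liver left out. Apcs changed sign without LKO replicate 2, at -0.047, and was 1.11 without LKO replicate 1. The cause of these shifts was not tested. For 25 named genes, 307 of 347 alternative values kept direction and call, 32 lost the call, 7 gained it and 1 reversed.

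The labels do not say whether replicate numbers pair the mice, and the main fit treated them as unpaired. Deviations of same-numbered livers correlated at only 0.0465, 0.0324 and 0.0535. Each liver still correlated best with its own number, a hint from the data and not the design, so pairing stays unsettled. With the replicate block 217 genes were raised and 199 lowered, 1 member was raised (Orm1, limma adjusted p 0.00333), and 2 cytokine signalling genes were. With 3 mice a group and Orm3 at 2 to 38 estimated reads, depth limits the lowest member most.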

Other observations

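Serpina3c, a member of the Serpina3 family named after its values were seen, was nearly absent from 2 wild type livers. Its signal was 0.13, 0 and 16.1 in wild type replicates 1, 2 and 3, and 27.95, 16.8 and 14.9 in LKO. LKO livers 1 and 2 were above the highest wild type liver and LKO replicate 3 was below it. The limma adjusted p was 0.115.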
